A study of Bos grunniens x Bos taurus and Bos grunniens with 6 samples.

Results

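The genes described here are those that act around the spermatogonial stem cell and its first step of differentiation in the testis: the niche ligands GDNF, FGF2, CSF1, CXCL12 and KITLG, the receptor KIT, and the germ cell transcription factors SOHLH1, SOHLH2 and NEUROG3. They were chosen by symbol for their known roles, with earlier results of these data known. Of the 9 symbols 8 matched a row, 1 each, among 18918 genes. NEUROG3 was not analysed here. RNA-seq of testis tissue was compared between 3 cattle-yak, the F1 males of a Jersey cattle sire and a Gannan yak dam, and 3 Gannan yak males, with 1 library for each animal. All animals were 4 years old. The animals of each group came from a county of their own. Per the study's methods the cattle-yak testes were removed by castration and the yak testes after euthanasia, while the labels give castration for all samples. Hybrid status, place and, if the methods hold, collection cannot be told apart. The reads of both groups were mapped to the yak genome, so cattle alleles in the hybrid were counted against yak sequence, and the effect of this on the values was not tested.

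Spermatogonial stem cells renew themselves next to Sertoli, myoid, vascular and interstitial cells that secrete growth factors. GDNF and FGF2 are known to sustain self-renewal, CSF1 acts through its receptor on macrophages and on undifferentiated spermatogonia, and CXCL12 guides and retains stem cells through CXCR4. KITLG from Sertoli cells binds KIT on differentiating spermatogonia, and SOHLH1 and SOHLH2, helix-loop-helix factors of the germ line, are known to promote entry into differentiation and Kit expression.

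Levels are given in FPKM, fragments per length of gene model and per depth of the library, which allow comparison between genes of an animal. FPKM is a share of its library, so a comparison between animals also depends on what else each library held. A gene was called when its difference on log2(FPKM + 1) was over 1 in size and limma gave it an adjusted p below 0.05. Of 15042 genes tested, 54.2% were called, 33.4% higher and 20.8% lower in cattle-yak, and the median log2 fold change was 0.51. All 8 genes with a row were tested, 6 were called higher, 0 lower and 2 were not called, with a median log2 fold change of 1.44. The groups did not overlap for 6 of the 8, always with cattle-yak above yak. Among all genes tested 84.1% did not overlap, 53.9% with cattle-yak above. These counts depended on how the libraries were scaled. The 6 higher and 0 lower became 4 and 0 when a size factor (the median of ratios) brought the typical gene to no change. A fit on fragments in place of FPKM (voom), added after the values were seen, called 6 and 0 at that scaling. Over all 15042 genes that fit called 3453 higher and 4545 lower. For the 8 genes the counts were 1 and 1 when each library was set against its own undifferentiated spermatogonia markers. They were 0 and 3 when it was set against its Sertoli markers. Over all 15042 genes tested, these 3 scalings of log2(FPKM + 1) gave, in that order, 2655 higher and 4173 lower, 1020 and 5742, and 34 and 10905.

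The animals differed in which cells filled the tissue, and values of whole tissue cannot tell fewer cells of a type from less RNA per cell. All 13 Sertoli markers tested were called higher in cattle-yak, with a summed level of 2817 to 3015 FPKM against 571 to 644 FPKM in yak. Of the 14 undifferentiated spermatogonia markers tested, 8 were called higher and 1 lower, and the sum of the 17 with a row was 348 to 427 against 91.8 to 112 FPKM. The 6 elongating spermatid markers were all called lower, with sums of 18.3 to 85.9 against 9060 to 11018 FPKM. The part of these shifts in the results that follow was not tested, beyond the values given relative to the marker lists. The cattle-yak libraries held 11175100 to 11834987 fragments assigned to genes, and the yak libraries 12991641 to 13136129.

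**Figure D1:**
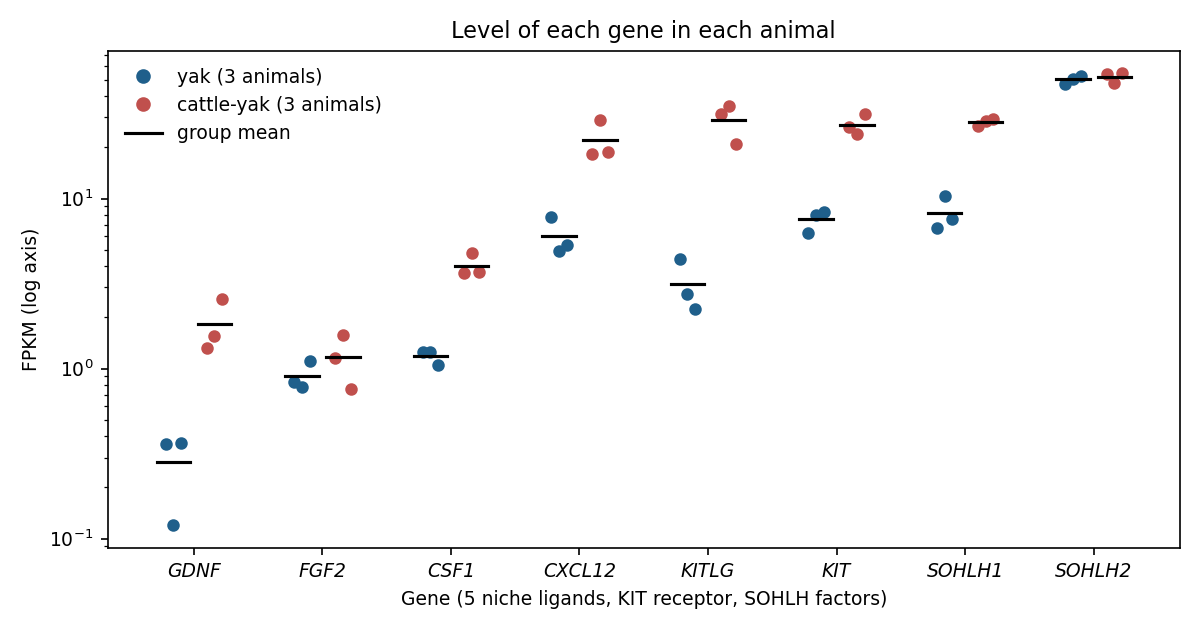
FPKM (log axis) of the 8 genes in each of the 3 yak and 3 cattle-yak, with points for animals and bars for group means. The groups stood apart for all but FGF2 and SOHLH2, from a mean of 0.281 FPKM for GDNF in yak to 52.0 FPKM for SOHLH2 in cattle-yak.

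Among the 5 ligands, 4 were called higher in cattle-yak at the scale of the deposited values, and FGF2 was not. GDNF (ENSBGRG00000021590), the Sertoli and myoid cell factor that signals through GFRA1 and RET, was at 1.33, 1.55 and 2.58 FPKM in the cattle-yak TES5, TES6 and TES7. In the yak Yak8, Yak9 and Yak10 it was at 0.359, 0.120 and 0.363 FPKM. Every cattle-yak was above every yak, and TES7 stood highest. The means were 1.82 ± 0.666 and 0.281 ± 0.139 FPKM (SD, n = 3 each), a 6.47-fold ratio, and the log2 fold change was 1.12 (SE 0.20, adjusted p = 0.0010).

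GDNF rested on few reads, 40 fragments in the cattle-yak together and 7 in the yak, and Yak9 held a single one. The ratio of the fragment rates was 6.48, with an exact 95% interval of 2.87 to 17.1 that covers counting error only. Its call was lost without TES7, where the log2 fold change was 0.93, and under median-of-ratios scaling, where it was 0.86. With voom at that scaling GDNF was called, at 1.88 (adjusted p = 0.020). Relative to the Sertoli markers in the same library, GDNF was lower in cattle-yak, by 1.07 on the log2 scale with 1 FPKM added, while with 0.1 FPKM added, a setting chosen after the values were seen, the difference was 0.07.

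FGF2 (ENSBGRG00000010536), a heparin-binding growth factor that acts on stem cells through the FGF receptors, stayed near 1 FPKM throughout. It was at 1.15, 1.58 and 0.763 FPKM in TES5, TES6 and TES7 and at 0.830, 0.780 and 1.10 FPKM in Yak8, Yak9 and Yak10. The groups overlapped, since the lowest of all 6 values belonged to a cattle-yak. The means were 1.17 ± 0.411 and 0.904 ± 0.173 FPKM (SD, n = 3 each), with a log2 fold change of 0.17, a 95% interval of -0.26 to 0.60 and an adjusted p of 0.41. The difference turned to -0.14 under median-of-ratios scaling. Relative to the Sertoli markers FGF2 differed by -2.02, and its groups did not overlap there (exact permutation p = 0.1, the smallest that 3 against 3 animals allow). The median of all tested genes was -1.68 on that scale. The Sertoli level itself was 6.43 to 6.55 (log2) in cattle-yak and 4.17 to 4.38 in yak. A gene of equal FPKM in all animals would therefore separate there too, so the separation is not particular to FGF2.

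CSF1 (ENSBGRG00000002310), the growth factor of the macrophage lineage, was low in every yak and higher in every cattle-yak. TES5, TES6 and TES7 held 3.63, 4.78 and 3.67 FPKM, and Yak8, Yak9 and Yak10 held 1.25, 1.25 and 1.05 FPKM. The yak values lay closer together than those of any other ligand, with a coefficient of variation of 9.79%. The means were 4.03 ± 0.653 and 1.18 ± 0.116 FPKM (SD, n = 3 each), and the log2 fold change was 1.20 (SE 0.16, adjusted p = 0.00014). Under median-of-ratios scaling it was 0.78 and no longer called, while voom at that scaling gave 1.13 and a call (adjusted p = 0.00063). Relative to the Sertoli markers CSF1 was at -0.99. Macrophage markers did not move as 1 block: of 6 tested, 3 were called higher and 2 lower, beside 33.4% and 20.8% of all genes tested. These calls were 1 and 2 under median-of-ratios scaling and 0 and 4 relative to the Sertoli markers. The sum of the 7 with a row was 214 to 328 FPKM in cattle-yak and 166 to 275 FPKM in yak. CD74 alone held 149 to 241 FPKM of it in cattle-yak and 69.9 to 163 FPKM in yak.

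CXCL12 (ENSBGRG00000018824), the chemokine, was the ligand with the highest level in yak. It was at 18.2, 29.1 and 18.9 FPKM in TES5, TES6 and TES7 against 7.77, 4.89 and 5.32 FPKM in Yak8, Yak9 and Yak10. TES6 stood above the other cattle-yak and Yak8 above the other yak, and the groups did not overlap. The means of 22.1 ± 6.11 and 5.99 ± 1.55 FPKM (SD, n = 3 each) differed 3.68-fold, with a log2 fold change of 1.71 (SE 0.22, adjusted p = 0.00013). Its spread among the cattle-yak was 6.49 times that of counting error alone. The call stayed under median-of-ratios scaling, at 1.15, while relative to the Sertoli markers the difference was -0.48 with overlapping groups (exact permutation p = 0.2).

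KITLG (ENSBGRG00000002777), the ligand of KIT, had the largest fold change of the 8 genes. The cattle-yak TES5, TES6 and TES7 held 31.5, 35.1 and 20.8 FPKM, whereas Yak8, Yak9 and Yak10 held 4.43, 2.74 and 2.24 FPKM. The lowest cattle-yak was thus well above the highest yak, although TES7 lay below the other cattle-yak. The means were 29.1 ± 7.46 and 3.14 ± 1.15 FPKM (SD, n = 3 each), a 9.29-fold ratio, with a log2 fold change of 2.87 (SE 0.25, adjusted p = 1.2e-05). The fragments behind it were 1177 in cattle-yak and 144 in yak.

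KITLG was also the only one of the 8 genes whose difference stayed above 0 with 1 FPKM added under every scaling tried. It was 2.33 under median-of-ratios scaling, 1.81 relative to the undifferentiated spermatogonia markers and 0.68 relative to the Sertoli markers. The first 2 of these passed the call. The third did not, and the groups overlapped there, since Yak8 lay above TES7 (exact permutation p = 0.2).

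The makeup of the ligand pool differed as well. KITLG made up 56.4%, 48.7% and 44.5% of the summed FPKM of the 5 ligands in TES5, TES6 and TES7, and 30.3%, 28.0% and 22.2% in Yak8, Yak9 and Yak10. Every cattle-yak was above every yak, at 49.9 ± 6.04% against 26.8 ± 4.15% (SD, n = 3 each). CXCL12 took a mean of 37.8% in cattle-yak and 52.0% in yak, CSF1 7.0% and 10.6%, FGF2 1.96% and 8.19%, and GDNF 3.35% and 2.43%. These shares are free of any scaling of the libraries. This comparison was chosen after the values were seen, so the shares restate the fold changes of the ligands, and no test is given.

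KIT (ENSBGRG00000023915), the receptor tyrosine kinase that marks differentiating spermatogonia, was at 26.4, 24.0 and 31.3 FPKM in TES5, TES6 and TES7. In Yak8, Yak9 and Yak10 it was at 6.29, 8.01 and 8.37 FPKM. The groups did not overlap, and the animals within a group lay close together beside the distance between groups. The means were 27.2 ± 3.74 and 7.56 ± 1.11 FPKM (SD, n = 3 each), a 3.60-fold ratio, with a log2 fold change of 1.72 (SE 0.15, adjusted p = 1.3e-05). KIT was still called under median-of-ratios scaling, at 1.15, and was below 0 relative to the Sertoli markers, at -0.47.

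Relative to the undifferentiated spermatogonia markers of the same library KIT differed by 0.67, and every cattle-yak was above every yak (exact permutation p = 0.1, the smallest possible). KIT is not limited to germ cells, and mast cells are among the other cells that carry it. The sum of the 4 mast cell markers with a row, CPA3, HDC, MS4A2 and FCER1A, was 0.127 to 0.584 FPKM in cattle-yak against 5.37 to 6.29 FPKM in yak. Of the 2 tested, the mast cell protease CPA3 was called lower at -2.36, and HDC was at -0.93, below the size for a call. MS4A2 and FCER1A were too low to be tested. The part of mast cells, or of any other cell type outside the germ line, in the level of KIT was not tested. Other cell types did not all go the way of the mast cell markers: all 6 Leydig markers tested were called higher at the scale of the deposited values.

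SOHLH1 (ENSBGRG00000019236) followed KIT closely in size. TES5, TES6 and TES7 held 26.5, 28.7 and 29.3 FPKM, and Yak8, Yak9 and Yak10 held 6.69, 10.3 and 7.54 FPKM. The 3 cattle-yak were nearly alike, with a coefficient of variation of 5.18% and a spread no wider than counting error, at 0.94 times it. The means were 28.2 ± 1.46 and 8.19 ± 1.90 FPKM (SD, n = 3 each), with a log2 fold change of 1.69 (SE 0.16, adjusted p = 1.9e-05). It was 1.11 and still called under median-of-ratios scaling, 0.63 relative to the spermatogonia markers with overlapping groups (exact permutation p = 0.2), and -0.50 relative to the Sertoli markers. The paper reports SOHLH1 as significantly upregulated in cattle-yak from the same animals, so the call here is not independent of that result.

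SOHLH2 (ENSBGRG00000020090), its partner, had the highest level of the 8 genes in both groups and nearly the same level in each. It was at 53.9, 47.7 and 54.5 FPKM in TES5, TES6 and TES7 and at 47.3, 50.6 and 52.6 FPKM in Yak8, Yak9 and Yak10. The values of the groups interleaved. The means were 52.0 ± 3.75 and 50.2 ± 2.65 FPKM (SD, n = 3 each), and the log2 fold change was 0.05 with a 95% interval of -0.18 to 0.28 and an adjusted p of 0.65. With 4264 and 4655 fragments, counting error was small, and the ratio of fragment rates was 1.04 (exact 95% interval 0.996 to 1.08).

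Under the other scalings the difference of SOHLH2 lay below 0. It was -0.56 under median-of-ratios scaling with an adjusted p of 0.0015, though under the size for a call. It was -1.01 relative to the undifferentiated spermatogonia markers and -2.14 relative to the Sertoli markers, with no overlap between groups in either (exact permutation p = 0.1, the smallest possible). The medians of all tested genes were -0.54 and -1.68 on these scales. Both list levels were higher in every cattle-yak than in every yak, so a gene of equal FPKM in all animals would separate there too. Of the 8 genes, SOHLH2 and FGF2 were the ones that lay below the median of all tested genes at the scale of the deposited values.

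**Figure D2:**
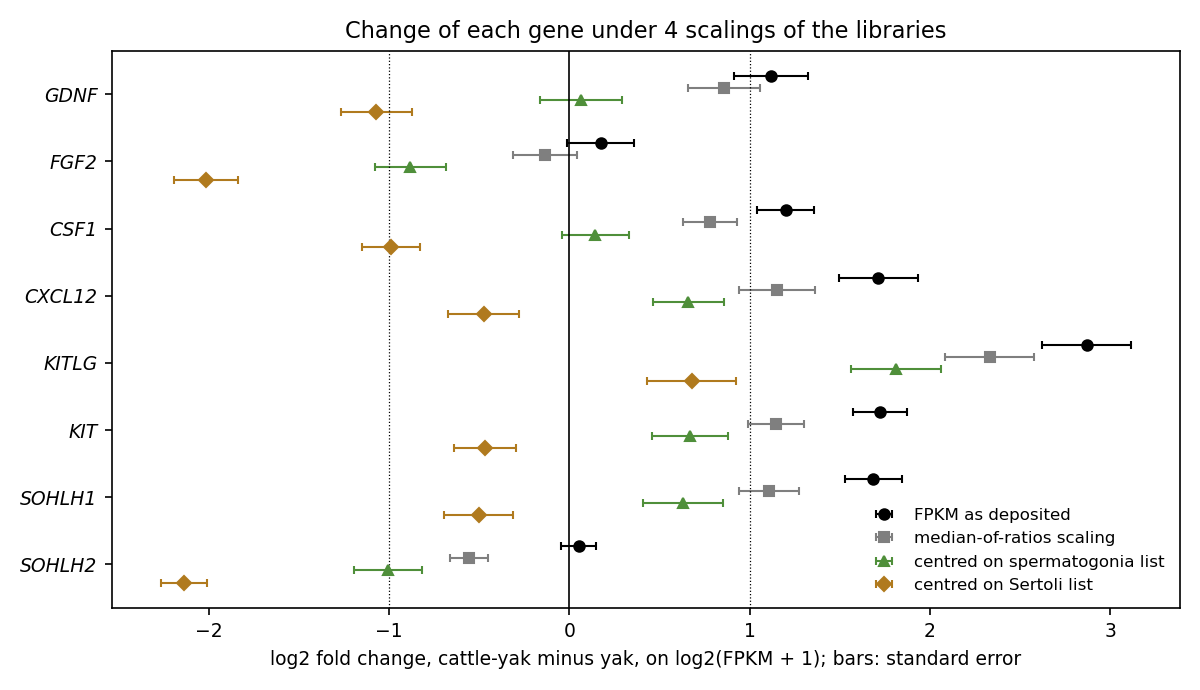
The log2 fold change, cattle-yak minus yak, of the 8 genes under 4 scalings of the libraries, each on log2(FPKM + 1), with bars for the standard error and dotted lines at the size needed for a call. KITLG lay above 0 under all 4 (0.68 to 2.87), and SOHLH2 ran from 0.05 down to -2.14.

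The order of the levels within a group changed with the hybrid. In yak, SOHLH2 stood far above the rest, followed by SOHLH1, KIT and CXCL12, whose ranges overlapped in sequence, then by KITLG, and the highest KITLG value stayed below the lowest CXCL12 value. CSF1 and FGF2 came next with overlapping ranges, and GDNF was last. In cattle-yak SOHLH2 was again first, but KITLG, SOHLH1, KIT and CXCL12 all lay between 18.2 and 35.1 FPKM and could not be ordered beyond their spread. CSF1 followed, apart from GDNF and FGF2, which overlapped.

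Ratios taken within an animal do not depend on the scaling of its library. KITLG to KIT was 1.19, 1.47 and 0.664 in TES5, TES6 and TES7 and 0.704, 0.342 and 0.267 in Yak8, Yak9 and Yak10. TES7 lay below Yak8, so the groups overlapped, and the mean difference was 1.39 on the log2 scale (exact permutation p = 0.2, adjusted over 4 ligand and receptor pairs 0.267).

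CXCL12 to its receptor CXCR4 (ENSBGRG00000001345) was the pair whose groups stood apart. The ratio was 1.53, 2.34 and 1.81 in TES5, TES6 and TES7 and 0.202, 0.132 and 0.209 in Yak8, Yak9 and Yak10. It was 10.5-fold higher in cattle-yak, with an exact permutation p of 0.1, the smallest possible, and 0.267 after adjustment. Ligand and receptor moved in opposite directions at the scale of the deposited values, although relative to the Sertoli markers both lay below 0. CXCR4 was at 11.9, 12.4 and 10.5 FPKM in the cattle-yak and at 38.5, 37.1 and 25.5 FPKM in the yak, a log2 fold change of -1.44 (adjusted p = 7.0e-05). CXCR4 stayed lower at -2.03 under median-of-ratios scaling, -2.50 relative to the spermatogonia markers and -3.63 relative to the Sertoli markers. ACKR3, the other receptor of CXCL12, which is known to take the chemokine up, was called higher at 2.01. It was at 0.95 and not called relative to the spermatogonia markers, and at -0.18 relative to the Sertoli markers. These values include the 1 FPKM added, and the mean FPKM of ACKR3 differed 5.69-fold.

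The other pairs did not separate. GDNF to GFRA1 was 1.09, 0.441 and 1.13 in TES5, TES6 and TES7 and 0.586, 0.188 and 0.469 in Yak8, Yak9 and Yak10, a difference of 1.13 on the log2 scale (exact permutation p = 0.3, adjusted 0.3) that shrank to 0.18 with 1 FPKM added to both genes. CSF1 to CSF1R was 0.536, 0.669 and 0.672 against 0.355, 0.299 and 0.621 in the same order, a difference of 0.62 (exact permutation p = 0.2, adjusted 0.267). In both pairs at least 1 yak lay within the range of the cattle-yak.

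After the values were seen, SOHLH1 and KIT were also set against SOHLH2, which held nearly equal levels. SOHLH1 to SOHLH2 was 0.492, 0.601 and 0.539 in TES5, TES6 and TES7 and 0.141, 0.204 and 0.143 in Yak8, Yak9 and Yak10, 3.38-fold higher in cattle-yak. KIT to SOHLH2 was 0.490, 0.502 and 0.575 against 0.133, 0.158 and 0.159 in the same order, 3.48-fold higher. Since the genes were picked for their values, these ratios restate the fold changes above on a scale free of library scaling, and no test is given.

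**Figure D3:**
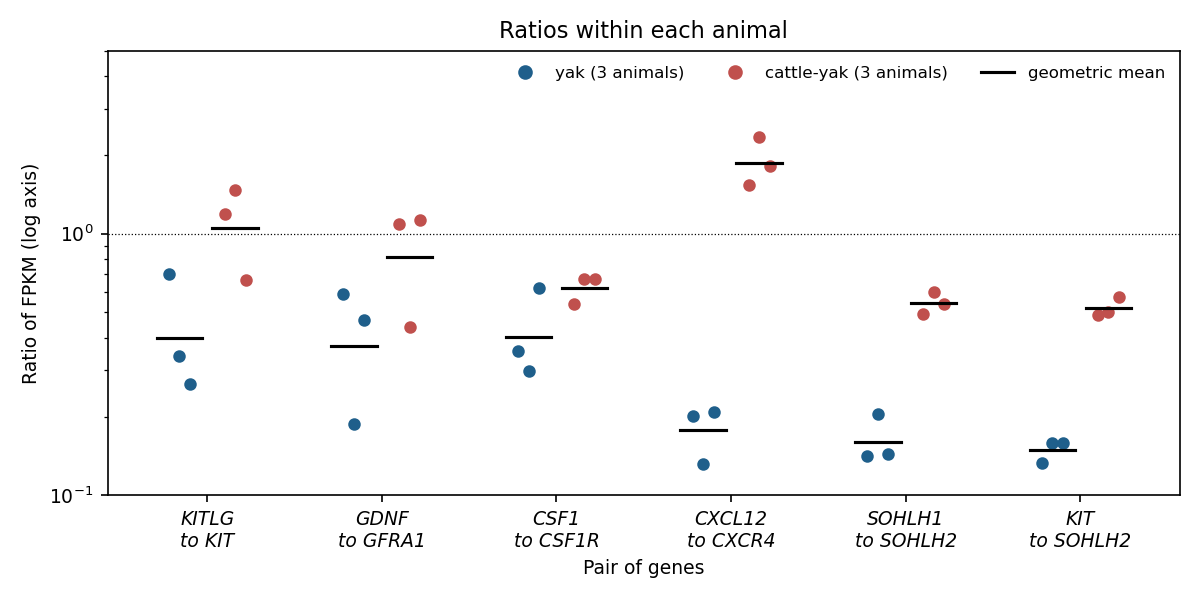
Ratio of FPKM (log axis) within each of the 3 yak and 3 cattle-yak for 4 ligand and receptor pairs and for SOHLH1 and KIT against SOHLH2, with bars at the geometric mean. CXCL12 to CXCR4 ran from 1.53 to 2.34 in cattle-yak and from 0.132 to 0.209 in yak, and the first 3 pairs overlapped between groups.

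The receptors of the niche ligands were mostly higher at the scale of the deposited values. Of 9 tested, 5 were called higher and 1 lower, beside 33.4% and 20.8% of all genes tested, with a median log2 fold change of 1.46. These became 4 and 1 under median-of-ratios scaling, 1 and 1 relative to the spermatogonia markers and 0 and 4 relative to the Sertoli markers. In the same order, all 15042 genes tested gave 2655 and 4173, 1020 and 5742, and 34 and 10905. The fibroblast growth factor receptor FGFR1 was at 18.5, 38.3 and 29.7 FPKM in TES5, TES6 and TES7 against 4.13, 2.93 and 2.46 FPKM in Yak8, Yak9 and Yak10, a log2 fold change of 2.80. RET, the kinase that GDNF activates, was at 5.65, 14.4 and 6.95 against 1.18, 0.964 and 1.99 FPKM, a log2 fold change of 2.0. TES6 was the highest animal for both, as it was for GFRA1. The GDNF co-receptor GFRA1 had a log2 fold change of 0.94 (adjusted p = 0.0083) and CSF1R, the receptor of CSF1, 0.90 (adjusted p = 0.0095). Both were just under the size for a call with 1 FPKM added. Their mean FPKM differed 3.46-fold for GFRA1 and 2.07-fold for CSF1R. The paper, which tested counts, reports GFRA1 as significantly upregulated in cattle-yak. Relative to the Sertoli markers FGFR1 was still above 0, at 0.61, and RET was at -0.19. The value of RET includes the 1 FPKM added, and its mean FPKM differed 6.53-fold.

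Of the other ligands of these receptors only 5 were tested, with 2 called higher, 0 lower and a median of 0.34. Over all genes tested 33.4% were called higher and 20.8% lower. Under median-of-ratios scaling 1 was called higher and 1 lower, relative to the spermatogonia markers 0 and 1, and relative to the Sertoli markers 0 and 4. All 15042 genes gave 2655 and 4173, 1020 and 5742, and 34 and 10905 under these scalings. NRTN, a GDNF family ligand that also signals through RET, had a log2 fold change of 2.02, and its mean level was above that of GDNF in both groups, at 14.8 to 18.4 FPKM in cattle-yak and 2.59 to 3.59 FPKM in yak. IL34, the other ligand of CSF1R, had a log2 fold change of 1.08 at no more than 2.11 FPKM. With 1 FPKM added, both lay below 0 relative to the Sertoli markers, at -0.17 for NRTN and -1.11 for IL34. That addition understates changes of low genes. The mean FPKM differed 4.98-fold for NRTN and 8.46-fold for IL34, whose yak mean was 0.177 FPKM. The sign of either without the addition was not tested.

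Genes known to respond to GDNF and FGF2 in spermatogonia did not all move one way. Of 13 tested, 8 were called higher and 1 lower, where all genes tested gave 33.4% and 20.8%, with a median of 1.64. The counts were 7 and 2 under median-of-ratios scaling, 3 and 3 relative to the spermatogonia markers and 0 and 4 relative to the Sertoli markers. Beside them, all 15042 genes gave 2655 and 4173, 1020 and 5742, and 34 and 10905. The immediate early factor EGR1 (2.76) and ID4 (2.72), an inhibitor of helix-loop-helix factors found in stem cells, were highest. Both remained above 0 relative to the Sertoli markers, at 0.57 and 0.53. LHX1, a GDNF-induced homeobox gene, was at 0.267, 0.535 and 0.0909 FPKM in TES5, TES6 and TES7 against 7.22, 5.52 and 3.79 FPKM in Yak8, Yak9 and Yak10. Its log2 fold change was -2.31 (adjusted p = 2.9e-05), and it was lower under every scaling. BCL6B, another GDNF-regulated gene, was not called at -0.92, but was called lower under the other scalings, at -1.45 by the median of ratios, -1.97 relative to the spermatogonia markers and -3.11 relative to the Sertoli markers. EGR1 was at 50.9 FPKM in TES5 and at 25.5 and 21.9 FPKM in TES6 and TES7. FOS, another immediate early gene, was not called and was at 27.9 FPKM in TES5 and at 2.54 to 3.94 FPKM in the other 5 animals. The related EGR2 was highest in TES7 and EGR3 in Yak8.

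Downstream of KIT, 8 of 16 signalling genes tested were called higher and 2 lower, with a median of 1.02, again beside 33.4% and 20.8% of all genes tested. Median-of-ratios scaling gave 5 and 2, the spermatogonia markers 2 and 3, and the Sertoli markers 0 and 9. For all 15042 genes these counts were 2655 and 4173, 1020 and 5742, and 34 and 10905. The SRC family kinases SRC and FYN had log2 fold changes of 2.79 and 2.52. SH2B3, an adaptor known to restrain KIT signalling in blood cells, was at 4.24, 4.08 and 2.53 FPKM in TES5, TES6 and TES7 against 23.6, 24.0 and 19.0 FPKM in Yak8, Yak9 and Yak10, a log2 fold change of -2.35. MTOR, the growth kinase, was lower by less, at -1.16. SH2B3 and MTOR were lower, and SRC and FYN higher, under each of the 4 scalings, although relative to the Sertoli markers SRC was only at 0.60 and FYN at 0.33.

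Among regulators, partners and reported targets of the SOHLH factors, 8 of 17 tested were called higher and 0 lower, with a median of 0.94, where 33.4% and 20.8% of all genes tested were called. Median-of-ratios scaling gave 4 and 0, the spermatogonia markers 3 and 3, and the Sertoli markers 0 and 11. Across all 15042 genes the same scalings gave 2655 and 4173, 1020 and 5742, and 34 and 10905. ID4 is counted here again, and ZBTB16, a repressor that maintains undifferentiated spermatogonia, had a log2 fold change of 2.34. STRA8, induced by retinoic acid at the start of differentiation, was called higher at 1.56 and DMRT1, a regulator of the mitosis to meiosis decision, at 1.95, and relative to the Sertoli markers they lay at -0.63 and -0.24. The binding partners TCF3, TCF4 and TCF12, broadly expressed E proteins, were not called, at 0.87, 0.13 and 0.31. Of the 13 differentiating spermatogonia markers tested, 7 were called higher and 0 lower, beside the same 33.4% and 20.8%. Their summed level was 727 to 870 FPKM in cattle-yak and 199 to 260 FPKM in yak. Most of that sum was DMRT1 alone, at 422 to 561 FPKM in cattle-yak and 100 to 154 FPKM in yak. Which cells carried DMRT1 was not tested, so the sum cannot be assigned to differentiating spermatogonia. Calls among these 13 markers were 5 and 1 under median-of-ratios scaling and 1 and 3 relative to the undifferentiated spermatogonia markers. They were 0 and 6 relative to the Sertoli markers, where all 13 lay below 0 and 10905 of all 15042 genes were called lower.

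The medians of the 5 lists depended on the scaling. They lay between 0.08 and 1.11 under median-of-ratios scaling, where the median of all tested genes was 0.01. Relative to the spermatogonia markers they lay between -0.71 and 0.58, beside -0.54 for all tested genes. Relative to the Sertoli markers they lay between -1.85 and -0.55, beside -1.68 for all tested genes. The undifferentiated spermatogonia list, whose genes partly stand in the receptor, response and SOHLH lists too, had a median of 1.42 as deposited.

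**Figure D4:**
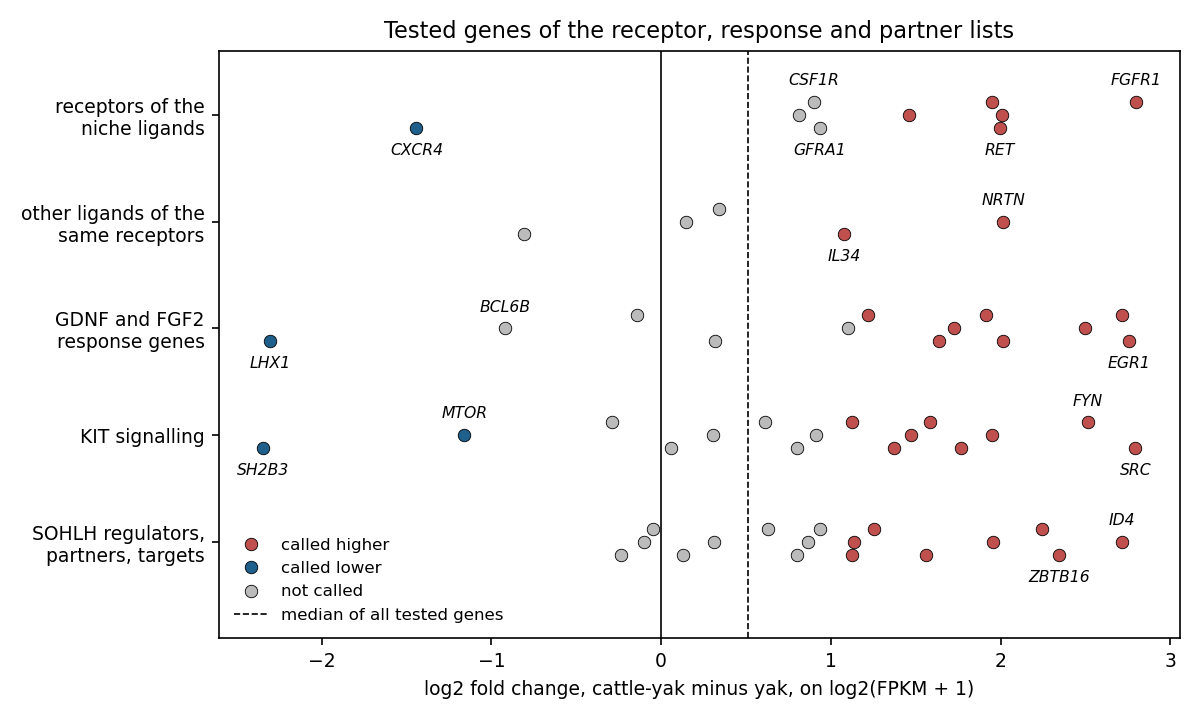
Log2 fold change, cattle-yak minus yak on log2(FPKM + 1), of the tested genes in 5 lists around the ligands, KIT and the SOHLH factors, with colour for the call and a dashed line at the median of all tested genes, 0.51. CXCR4, LHX1, SH2B3 and MTOR are the 4 genes called lower.

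The genes whose profile over the 6 animals was most like each of the 8 were found by Euclidean distance on log2(FPKM + 1), a measure of the level as well as of its change. For GDNF these were ANOS1 (0.402) and VEGFD (0.402), for FGF2 GMPR (0.313) and RGS11 (0.332), and for CSF1 SEMA6D (0.245) and IL17RD (0.261). CXCL12 lay nearest to CDH3 (0.323) and PUS1 (0.409), and KITLG to SYNE3 (0.612) and TPP1 (0.765). KIT had the closest neighbours of all 8, the testis gene ACTL8 (0.143) and the chromatin remodeller HELLS (0.161). SOHLH1 lay nearest to TSPO (0.292) and TMEM41B (0.402), and SOHLH2 to CFAP20 (0.230) and AP3B1 (0.235). The nearest gene of KITLG was farther away than the nearest gene of any other of the 8.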

How the data were processed

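Testis RNA-seq of 3 cattle-yak and 3 yak was used, 1 library an animal, grouped by their labels. The authors trimmed the reads, aligned those of both groups to LU_Bosgru_v3.0 of the yak using HISAT2, and deposited FPKM per gene, computed with Cufflinks per their methods, without scaling between libraries. The values were whole fragments over gene length and depth: fragments came out whole within 0.03, with lengths within 0.02 of a whole base, for 17973 of 18918 genes, and the other 945 had at most 1 value above 0. Which program gave the values is therefore uncertain.

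Genes averaging 0.5 FPKM or more were compared with limma 3.58.1 in R 4.3.3 (variance trend, two-sided, Benjamini-Hochberg adjustment over all genes tested) on log2(FPKM + 1), which understates changes of low genes. This replaced the study's test on counts, with its thresholds kept, so a low gene needed a larger FPKM ratio to be called than in the study. Single values and ratios were compared by two-sided exact permutation tests in Python 3.11.15 with scipy 1.17.1. The scripts were tested on simulated data. Alternatives were other pseudocounts, filters and scalings (the Sertoli and spermatogonia centrings subtract a mean log2 level over 13 and 14 markers), voom on the fragments, and leaving out each animal.

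The members and lists were chosen with earlier results of these data known. Named were the members, 4 receptors, the 2 genes of each pathway list called furthest in each direction, and the 2 genes nearest to each member; others were named after their values were seen. The labels do not give how animals were related, and the kit was stranded but the strand setting of the counting is not given in the sources used here. Sequences and positions were not used here.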

Additional observations from a re-analysis of the deposited data

How the results depend on the processing

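With 3 animals a group, no exact permutation test could pass 0.05, and GDNF and FGF2 rested on 3 to 26 fragments in all animals but Yak9, which held 1 GDNF fragment. Another pseudocount (0.1), no filter, no variance trend and voom left all 8 calls in place. A mean of at least 5 FPKM dropped GDNF, FGF2 and CSF1 and left the other calls as they were. Leaving out 1 animal gave 5 to 6 genes called higher and 0 to 0 called lower, the loss being GDNF without TES7, and log2 differences of 1.10 to 1.80 for KITLG to KIT, 0.64 to 1.58 for GDNF to GFRA1, 0.41 to 0.93 for CSF1 to CSF1R and 3.18 to 3.54 for CXCL12 to CXCR4. With 1 FPKM added to both genes GDNF to GFRA1 was 0.18.

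Centring the libraries on marker lists changed the counts, as did the pseudocount beneath it. Higher and lower calls numbered 0 and 3 on the Sertoli list, 1 and 1 on the spermatogonia list, and, in settings with pseudocount 0.1 that were chosen after the values were seen, 0 and 2 and 2 and 1. Over all genes the same centrings gave 34 higher and 10905 lower on the Sertoli list and 1020 and 5742 on the spermatogonia list, and median-of-ratios scaling gave 2655 and 4173. With pseudocount 0.1 all genes gave 122 and 10063 on the Sertoli list and 1340 and 6152 on the spermatogonia list. Signs turned on the Sertoli list for GDNF (-1.07), FGF2 (-2.02), CSF1 (-0.99), CXCL12 (-0.48), KIT (-0.47), SOHLH1 (-0.50) and SOHLH2 (-2.14), and with pseudocount 0.1 for FGF2 (-1.99), CSF1 (-0.60), CXCL12 (-0.43), KIT (-0.45), SOHLH1 (-0.49) and SOHLH2 (-2.23). On the spermatogonia list FGF2 was -0.88 and SOHLH2 -1.01, and -0.92 and -1.17 with pseudocount 0.1. Under median-of-ratios scaling they were -0.14 and -0.56, and -0.31 and -0.58 with voom, which was also added after the values were seen and called the same 6 genes higher. Each of these changes follows from the level subtracted, and which scaling reflects the tissue was not tested. At the scale of the deposited values, where 33.4% of all genes tested were called higher and 20.8% lower, 6 of 6 Leydig and 7 of 7 myoid genes were called higher. Of 7 endothelial genes 3 were higher and 1 lower, and 5 of 5 round spermatid genes were lower. Under median-of-ratios scaling 5 Leydig, 6 myoid and 0 endothelial genes were called higher. On the Sertoli list each of these 3 lists had 0 higher. The round spermatid genes stayed lower under both.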

Other observations

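The spermatocyte markers did not all move one way. Of 8 tested, SYCP3, a structural protein of the meiotic chromosome axis, was called higher at 1.10, and PIWIL1 and CCNA1, which belong to later spermatocytes, were called lower at -3.32 and -3.31, and the other 5 were not called. The median log2 fold change was -0.14, and it was -0.70 under median-of-ratios scaling, under which SYCP3 was no longer called and 7 of the 8 lay below 0.

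CCDC169 was looked up after the values were seen, because joined transcripts of CCDC169 and SOHLH2 are annotated in human. The row ENSBGRG00000007551 was at 0.395, 0 and 0 FPKM in TES5, TES6 and TES7 and at 12.1, 11.3 and 9.59 FPKM in Yak8, Yak9 and Yak10, with a log2 fold change of -3.42 (limma, adjusted p = 1.1e-06), while SOHLH2 held nearly equal levels. A second row of that symbol, ENSBGRG00000020527, was at 0 to 0.537 FPKM in cattle-yak and 0.457 to 2.54 FPKM in yak and was not called. Whether joined transcripts add to the level of SOHLH2 in yak was not tested.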
